A study of Sus scrofa domesticus with 6 samples.

Results

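Potassium, sodium and calcium channel genes were followed in the small intestine of Göttingen minipigs after abdominal irradiation. The genes were chosen by name: every row whose symbol started with KCN, CACNA or RYR, or with SCN followed by a number, and that held at least 50 reads summed over the 6 libraries. Of the 124 rows with such names, 106 reached the minimum, out of 30352 rows with a gene name in the table. KCNF1 (57 reads), KCNK4 (58), KCNMB2 (59) and KCNMB3 (59) lay just inside that limit, and KCNG3 (49), KCNJ15, KCNK10 and KCNJ9 (39 each) just outside it. A filter on low counts kept 105 of the 106 for testing, with KCNJ4 left out.

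The animals were wild-type Göttingen minipigs, 6 months old, with 2 animals in each of 3 groups and 1 RNA sequencing library for each animal. The control group was not irradiated. The IR group received 15 Gy of gamma rays to the abdomen. The IR_Pra group received the same irradiation and pravastatin by mouth at 40 mg a day for 2 weeks, and tissue was taken on day 14. Pravastatin is a statin, an inhibitor of cholesterol synthesis. No group received pravastatin without irradiation, so that pravastatin was compared only within irradiated animals.

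Voltage-gated potassium, sodium and calcium channels open when the membrane voltage changes, and ryanodine receptors release calcium from the stores inside the cell. In the gut wall, calcium entry through L-type channels drives contraction of smooth muscle, potassium channels oppose it, sodium channels carry action potentials in enteric neurons, and potassium channels of the epithelium keep up the electrical driving force for chloride secretion. Most channels are built from a pore-forming subunit and auxiliary subunits that change its gating or its transport to the membrane.

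The libraries held between 48587645 and 73968471 counts over named genes. Levels are given as CPM, a gene's count scaled to a common library total and corrected by trimmed mean of M-values (TMM), except where genes are set against each other, where FPKM, which takes transcript length into account, is used. Markers of the gut epithelium were read in every library, as the tissue label states: VIL1, which encodes villin, lay between 122 and 2183 CPM, with the lowest value in IR 2. The 2 IR libraries stood apart from each other. The summed CPM of 10 epithelial markers was 7942 in IR 1 and 1270 in IR 2, against 7650 and 8486 in the controls and 8623 and 7156 in IR_Pra. In IR 1, log2 ratios to the control mean also moved with transcript length (Spearman's rho -0.35 over all genes, against -0.04 in IR 2). The channel genes had long transcripts, with a median of 4886 nt against 3109 nt over all genes tested. Results are therefore given by library. In bulk tissue, fewer cells of a type and less RNA per cell cannot be told apart.

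The channel genes differed widely in level. In FPKM averaged over the 6 libraries, KCNQ1 (39.1), KCNMB1 (38.4), CACNA1H (34.7) and KCNK5 (31.2) stood highest. KCNE3 (15.4), KCNJ13 (14.9), KCNH2 (14.1), KCNN4 (12.2), KCNIP4 (9.72) and KCNAB2 (6.35) followed. The 10 genes together held between 68.8% and 79% of the summed channel FPKM of a library. At the other end, 75 of the 106 genes had a mean under 1 FPKM and 15 a mean under 0.1 FPKM. The order differed between groups: KCNK5 had rank 1 in control, at 43.5 ± 0.734 FPKM (mean ± SD, n = 2), and rank 5 in IR, while KCNMB1 had rank 4 in control and rank 1 in IR. Several neighbours in this order were not separated by the spread between animals. KCNQ1, for example, had 31.7 ± 15.7 FPKM in control and 46.6 ± 37.3 in IR, and KCNMB1 had 18.4 ± 12 and 66.1 ± 25. KCNJ13 had rank 3 among the channel genes in the controls, at 23.3 ± 1.28 FPKM, and at rank 18 in IR, at 3.18 ± 4.17.

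Irradiated intestine was first compared with unirradiated intestine. In IR against control, 7 of 105 channel genes passed an adjusted p under 0.05, which is 6.67% of them (edgeR quasi-likelihood test, Benjamini-Hochberg over 18197 genes, two-sided). Over all genes tested, 6.06% passed, so that the share of channel genes called was near the background. CACNA1G and KCNH2 were among the 4 that rose, and KCNJ3, KCNJ10 and KCNJ1 fell. Of all genes, 3.39% rose and 2.68% fell. CACNA1G and KCNH2 encode pores of voltage-gated channels, and the 3 that fell are all inward rectifiers, potassium channels that pass current more easily into the cell and so hold the resting potential. The genes past the threshold were few, but log2 fold changes over the channel genes were mostly above 0. Of the 105, 76 had a positive log2 fold change (51.3% of all genes did), and the median was 0.71 against 0.03 over all genes. Both IR libraries lay above both controls for 42 channel genes, 40% of them, where 29.8% of all genes did so, and below both for 18, or 17.1%, where 30% of all genes did. In either direction that was 60 of 105, against 59.8% of all genes. An unadjusted p under 0.05 was reached by 35 channel genes, or 33.3%, and by 30.2% of all genes. The count moved with the library left out: without either control or either IR_Pra library none of the channel genes and none of all genes passed. Without IR 1, 35 channel genes and 28.3% of all genes passed, and without IR 2, 10 channel genes and 17.5% of all genes. The median was 0.98 without IR 1 and 0.08 without IR 2.

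**Figure D1:**
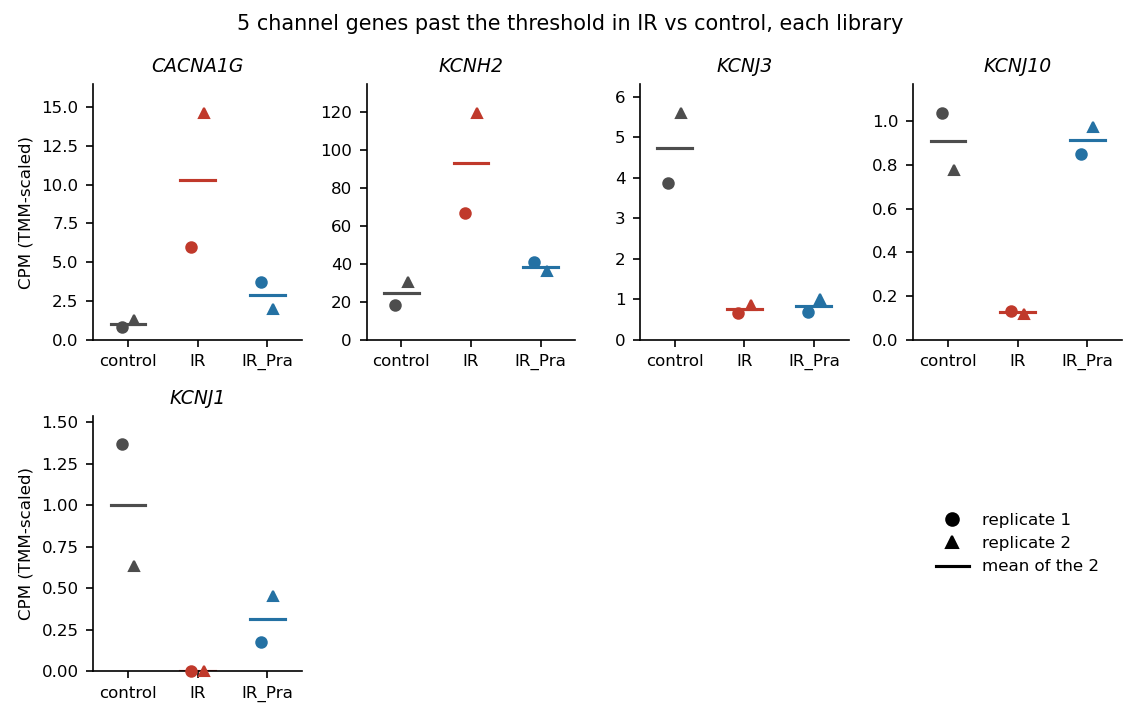
CPM (TMM-scaled, linear axis from 0) of 5 of the 7 channel genes past the threshold in IR against control, by group. Circles are replicate 1, triangles replicate 2, and bars the mean of the 2 animals. In each panel both IR points lie apart from both control points, and for KCNJ3 the IR_Pra points lie beside the IR points.

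KCNH2 (18:6242826-6279154 in the authors' table, build Sscrofa11.1; Entrez 100523293) encodes the ERG channel, the rapid delayed rectifier of the heart, which is also known from gut smooth muscle. Its level was 18.5 and 30.5 CPM in the controls, 67.1 and 119.8 in IR, and 40.8 and 36.1 in IR_Pra. Here the IR_Pra animals lay between the groups, above both controls and below both IR animals. On the log2 scale IR exceeded control by 1.93 ± 0.39 (SE; edgeR, adjusted p = 0.0485). The gene was not called by limma voom (adjusted p = 0.0522) or by edgeR with no low-count filter (adjusted p = 0.0539).

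CACNA1G (12:26838633-26912344; Entrez 100513431) encodes a T-type calcium channel, which opens at low voltages. It was read at 0.779 and 1.25 CPM in the controls, 5.98 and 14.6 in IR, and 3.75 and 1.99 in IR_Pra. Its log2 fold change was 3.34 ± 0.63 (edgeR, adjusted p = 0.0451), and the 2 IR animals differed from each other more than the 2 controls did. With limma voom CACNA1G was not called (adjusted p = 0.0576).

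Among the genes that fell, KCNJ3 (15:62263913-62415915; Entrez 396586), a pore of the G-protein-gated potassium channels of neurons and atrial muscle, was read at 3.86 and 5.60 CPM in the controls, 0.650 and 0.845 in IR, and 0.676 and 0.994 in IR_Pra. All 4 irradiated animals lay under both controls, with or without pravastatin. The log2 fold change of IR against control was -2.65 ± 0.46 (edgeR, adjusted p = 0.0410). In IR_Pra against control it was -2.50 ± 0.46, with an unadjusted p of 0.0017 and an adjusted p of 1.0, so the fall was not called there by edgeR, while DESeq2 called it.

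KCNJ10 (4:90421956-90457406; Entrez 100627780), the potassium channel with which glial cells take up potassium, had 60 and 49 reads in the controls, 7 and 9 in IR, and 44 and 52 in IR_Pra. In CPM that was 1.04 and 0.778, 0.130 and 0.119, and 0.850 and 0.975. The IR animals were the low ones, and the IR_Pra values fell within the control range. The log2 fold change of IR against control was -2.85 ± 0.56 (edgeR, adjusted p = 0.0473). Among the 7 glial markers on the list, 6 had positive log2 fold changes, GFAP rose and ERBB3, which epithelial cells also express, fell. The summed CPM of that list was 815 and 942 in the controls, 257 and 239 in IR and 529 and 597 in IR_Pra. ERBB3 alone had a negative log2 fold change, -2.82, and the part of the list in the KCNJ10 result was not tested.

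KCNJ1 (9:55779020-55812761; Entrez 100517668), the ROMK potassium channel of secretory and absorptive epithelia, had 79 and 40 reads in the controls, none in IR, and 9 and 24 in IR_Pra. Both IR libraries were at 0. With reads pooled over each group and a floor of 3 reads, IR was at least 42.6-fold lower than control (edgeR, adjusted p = 0.0481). On the same footing IR_Pra was at least 13.6-fold higher than IR, a difference that was not called (edgeR, adjusted p = 0.107). These bounds leave out the spread between animals. Neither KCNJ1 nor KCNJ10 was called by limma voom (adjusted p = 0.0531 and 0.0708). In edgeR neither was called with no low-count filter (adjusted p = 0.0566 and 0.0536) or with the length trend removed (adjusted p = 0.0512 and 0.0547). Over the 6 fits that each left out 1 library, the KCNJ10 log2 fold change ran from -2.98 to -2.60.

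**Figure D2:**
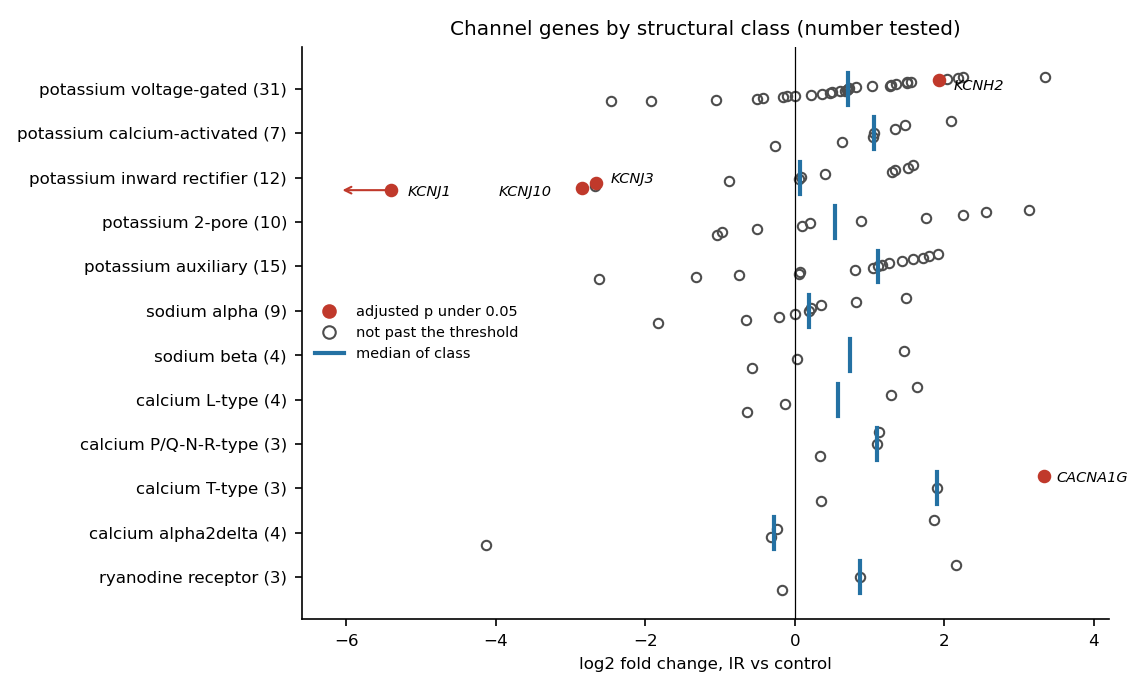
Log2 fold change of IR against control for the channel genes tested, 2 of them not drawn, 1 row per structural class with the number tested in brackets. Filled points passed an adjusted p under 0.05, bars are medians over all tested genes of a class, and KCNJ1, with no reads in IR, is drawn at its bound with an arrow. Most classes have their median to the right of 0, and the 3 filled points left of 0 are inward rectifiers.

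By class, the 31 pore subunits of voltage-gated potassium channels had 0.71 as their median log2 fold change. Of these, 2 were called higher, none lower, and 24 lay above 0. The shares over all genes, here and for the classes below, were 3.39% called higher, 2.68% called lower and 51.3% above 0. KCNA5, a delayed rectifier of vascular muscle, was read at 1.11 and 1.48 CPM in the controls, 3.81 and 6.79 in IR, and 1.60 and 1.59 in IR_Pra. The IR animals stood above the rest, but the log2 fold change of 2.03 ± 0.45 missed the threshold (edgeR, adjusted p = 0.0542). KCNA3, the delayed rectifier of T cells, overlapped between all groups, at 3.84 and 3.81 CPM in the controls, 1.89 and 4.97 in IR, and 6.06 and 3.36 in IR_Pra.

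The 15 auxiliary subunits of potassium channels had a median of 1.12, with 12 above 0 and none called. KCNAB2, a cytoplasmic beta subunit, was read at 15.5 and 13.3 CPM in the controls, 25.2 and 69.5 in IR, and 17.3 and 16.4 in IR_Pra (IR against control 1.72 ± 0.48, edgeR, adjusted p = 0.0803). KCNIP4, which binds A-type channels, had 6.63 and 30.9 CPM in the controls and 29.5 and 54.7 in IR, which overlap, while both IR_Pra animals, at 35.7 and 36.1, lay above both controls. KCNMB4, the neuronal beta subunit of the BK channel, had 2.68 and 2.40 CPM in control and 3.38 and 5.53 in IR. In IR_Pra it had 1.60 and 1.24 CPM, under both controls, with a log2 fold change of -1.65 ± 0.42 against IR (edgeR, adjusted p = 0.103).

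None of the 7 pore subunits of calcium- and sodium-activated potassium channels was called, and 6 of them had positive log2 fold changes. KCNT1, a sodium-activated channel, came nearest, with 1.78 and 1.16 CPM in the controls, 3.94 and 8.57 in IR, and 2.74 and 2.81 in IR_Pra (2.09 ± 0.50, edgeR, adjusted p = 0.0631). KCNN1 and KCNN2, the small-conductance channels of neurons, had log2 fold changes of 1.47 ± 0.77 and 1.34 ± 0.62. For KCNT2, the other sodium-activated channel, IR 1 lay under both controls and IR 2 above them.

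The 12 inward rectifiers tested had a median of 0.07, the lowest of the potassium channel classes. Beside the 3 that fell, KCNJ8, the pore of the vascular ATP-sensitive potassium channel, was read at 4.78 and 3.76 CPM in the controls, 9.05 and 16.5 in IR, and 5.46 and 6.55 in IR_Pra. Its IR animals lay above all others, with a log2 fold change of 1.58 ± 0.39 (edgeR, adjusted p = 0.0659). KCNJ4, too sparse to be tested, had no reads in the controls, 59 in IR, of which 50 came from IR 1, and 10 in IR_Pra. With the same floor and reads pooled over the group, it was at least 18.3-fold higher in IR than in control. That bound rests mostly on IR 1 and leaves out the spread between animals.

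Among the 10 tested 2-pore potassium channels, which carry background current, 7 had positive log2 fold changes and none was called. KCNK3, an acid-sensitive background channel of vascular muscle, was read at 0.952 and 1.60 CPM in the controls, 4.51 and 10.6 in IR, and 2.28 and 1.86 in IR_Pra (2.57 ± 0.56, edgeR, adjusted p = 0.0531). KCNK13, a background channel known from microglia, had 1.16 and 1.0002 CPM in the controls, 3.06 and 7.25 in IR, and 1.85 and 2.29 in IR_Pra (2.26 ± 0.52, edgeR, adjusted p = 0.0594). In both genes the IR animals were the highest and the IR_Pra animals lay above the controls. The macrophage markers, 6 of 7 of which rose, summed to 718 and 732 CPM in the controls, 3493 and 3730 in IR, and 1231 and 1846 in IR_Pra, with no marker at 0. Their part in the KCNK13 values was not tested.

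Each of the sodium channel alpha subunits had a mean under 1 FPKM. None of these 9 genes, which form the pore, was called, and their median was 0.19. SCN7A, a sodium sensor found in glia, ran from 1.32 CPM in IR 1 to 12.3 in IR 2, the lowest and the highest of the 6 libraries. SCN9A, a channel of sensory neurons, likewise had its lowest value, 2.21 CPM, in IR 1, while IR 2 (6.68) and IR_Pra 1 (6.70) were the highest. SCN4A, the skeletal muscle channel, had 3.67 and 1.60 CPM in the controls, 1.15 and 0.343 in IR, and 0.734 and 2.53 in IR_Pra. Of the beta subunits, SCN2B had 2.75 and 4.41 CPM in control and 6.19 and 13.5 in IR, with 3.65 and 5.23 in IR_Pra. SCN4B had 2.48 and 2.40 CPM in control and 1.75 and 1.55 in IR, with 2.82 and 2.59 in IR_Pra. The IR animals were thus the highest for SCN2B and the lowest for SCN4B, and neither passed the test (edgeR, adjusted p = 0.121 and 0.331).

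Calcium channel pores fell into 3 types. The 3 T-type genes had a median of 1.91. Both IR animals lay above both controls in each of them, where 29.8% of all genes did so. CACNA1H, the T-type gene with the highest FPKM, was read at 104.9 and 178.9 CPM in the controls, 311.9 and 752.5 in IR, and 210.7 and 149.9 in IR_Pra. The IR animals were again the highest, and the difference missed the threshold (1.91 ± 0.52, edgeR, adjusted p = 0.0771). CACNA1I, at 1.44 and 1.32 CPM in the controls, 1.54 and 1.97 in IR, and 2.86 and 1.05 in IR_Pra, had IR values just above the controls and within the range of IR_Pra.

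Of the 4 L-type genes none was called. CACNA1C, the L-type pore of smooth muscle, had 11.06 and 18.3 CPM in the controls, 14.5 and 76.4 in IR, and 29.7 and 16.5 in IR_Pra. Its mean difference came from IR 2 alone, since IR 1 lay within the control range. CACNA1S, the skeletal muscle pore, had 1.80 and 1.94 CPM in the controls, 4.05 and 5.08 in IR, and 0.734 and 1.05 in IR_Pra. The order was IR, control, IR_Pra with no overlap, at log2 fold changes of 1.29 ± 0.39 for IR against control (edgeR, adjusted p = 0.0944) and -2.35 ± 0.41 for IR_Pra against IR (edgeR, adjusted p = 0.0761). Of the skeletal muscle markers, MYH1 and MYH2 rose in IR and MYL1 had no read in any library. The list's summed CPM, most of it CKM, was 39.6 and 125 in the controls, 346 and 394 in IR and 204 and 138 in IR_Pra, and its part in the CACNA1S values was not tested.

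CACNA1A, CACNA1B and CACNA1E, the P/Q-, N- and R-type pores of nerve terminals, had log2 fold changes of 0.34 ± 0.45, 1.10 ± 0.65 and 1.12 ± 0.61, all with overlapping groups. In each, IR 2 was the highest library. The alpha-2-delta subunits, which carry pores to the membrane, had a median of -0.27. CACNA2D3 was read at 0.606 and 0.889 CPM in the controls, 2.30 and 3.13 in IR, and 1.18 and 1.22 in IR_Pra (1.86 ± 0.45, edgeR, adjusted p = 0.0626). CACNA2D4 was nearly unread in irradiated animals, at 0 and 0.0792 CPM in IR and 0 and 0.188 in IR_Pra, against 1.30 and 0.333 in control. CACNA2D1, the subunit of muscle, overlapped between the groups.

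Among the ryanodine receptors, RYR3 had 1.54 and 4.21 CPM in the controls, 5.18 and 20.4 in IR, and 10.3 and 7.24 in IR_Pra. All 4 irradiated animals lay above both controls, with a log2 fold change of 2.15 ± 0.78 for IR against control (edgeR, adjusted p = 0.133). RYR2, the cardiac form, had 4.33 and 7.24 CPM in the controls, 7.21 and 14.0 in IR, and 9.13 and 6.94 in IR_Pra. RYR1, the skeletal form, had 1.71 and 0.889 CPM in the controls, 0.762 and 1.53 in IR, and 0.772 and 1.31 in IR_Pra. Both overlapped between control and IR.

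Grouped by the site for which they are best known, the 15 genes of smooth muscle and vessel wall had the highest median log2 fold change of IR against control, 1.63, with 13 above 0 and 1 called, as higher. Among all genes 51.3% lay above 0 and 3.39% were called higher. Both IR animals lay above both controls for 10 of these 15, where 29.8% of all genes did so. The median against the control mean was 1.19 in IR 1 and 2.05 in IR 2. KCNMB1, the beta subunit that makes the BK channel of smooth muscle more sensitive to calcium, was read at 42.0 and 112 CPM in the controls, 235 and 344 in IR, and 127.9 and 117 in IR_Pra. IR was the highest group and IR_Pra lay just above the higher control (IR against control 1.91 ± 0.50, edgeR, adjusted p = 0.0707). In the RefSeq annotation KCNMB1 overlaps another channel gene, KCNIP1. KCNMA1, the BK pore itself, had 17.97 and 15.6 CPM in the controls, 14.2 and 55.3 in IR, and 48.9 and 26.2 in IR_Pra, so that IR 1 was the lowest library and IR 2 the highest. KCNE4, an inhibitory subunit of voltage-gated potassium channels, had 1.82 and 2.51 CPM in the controls, 6.04 and 8.95 in IR, and 3.13 and 1.63 in IR_Pra (1.79 ± 0.47, edgeR, adjusted p = 0.0716).

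**Figure D3:**
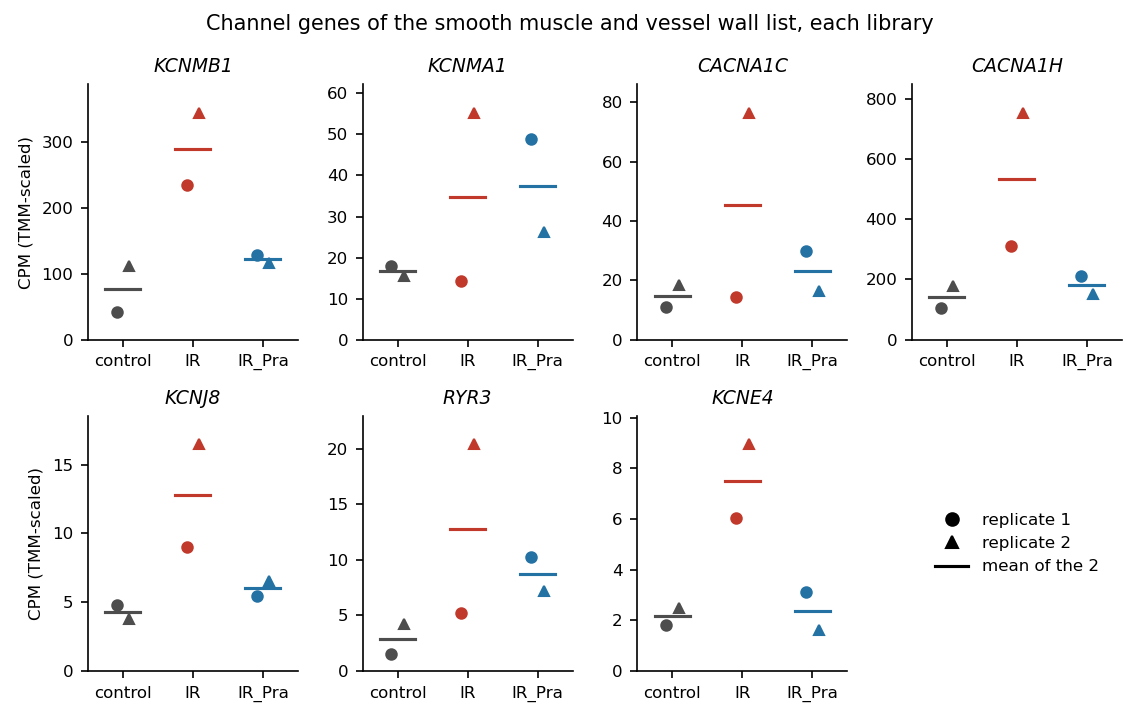
CPM (TMM-scaled, linear axis from 0) of 7 channel genes of the smooth muscle and vessel wall list, by group. Circles are replicate 1, triangles replicate 2, and bars the mean of the 2 animals. IR 2 is the highest library in each panel, while IR 1 lies within or below the control range for KCNMA1 and CACNA1C.

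Markers of smooth muscle moved with these genes. All 10 markers on the list had positive log2 fold changes, and ACTA2, smooth muscle actin, was the 1 that passed. Their summed CPM was 6493 and 13269 in the controls, 34102 and 72916 in IR, and 22164 and 14914 in IR_Pra, and none was at 0. Markers of interstitial cells of Cajal, the pacemaker cells of the gut, summed to 25.7 and 51.1 CPM in control and 44.3 and 131 in IR. The part of these in the channel values was not tested.

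The gut epithelium list went the other way. None of its 8 tested genes was called, and 6 had negative log2 fold changes. Both IR animals lay below both controls for those 6, where 30% of all genes did so. KCNJ13, an inward rectifier of transporting epithelia, was read at 81.6 and 74.3 CPM in the controls, 23.7 and 0.832 in IR, and 55.2 and 60.5 in IR_Pra. IR 2 had almost none, which left the log2 fold change at -2.67 ± 1.26 (edgeR, adjusted p = 0.216). KCNK5, an alkaline-activated background channel of the epithelium, had 160.6 and 161.7 CPM in the controls, 144 and 12.3 in IR, and 103 and 121 in IR_Pra, so that only IR 2 lay far from the rest. KCNQ1, the pore that joins KCNE3 in the crypt, had 68.4 and 139.9 CPM in the controls, 278 and 65.2 in IR, and 125 and 121 in IR_Pra. There IR 1 was the highest library and IR 2 the lowest.

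KCNE3, the subunit that keeps KCNQ1 open, had 29.9 and 41.1 CPM in the controls, 19.4 and 23.0 in IR, and 42.8 and 53.9 in IR_Pra. The 2 IR animals lay close together below all others (IR against control -0.74 ± 0.27, edgeR, adjusted p = 0.135). KCNK6, a background channel, had 23.6 and 15.6 CPM in the controls, 8.49 and 11.5 in IR, and 23.3 and 22.4 in IR_Pra, again lowest in IR (-0.97 ± 0.31, edgeR, adjusted p = 0.105). KCNN4, the intermediate-conductance calcium-activated channel of epithelium and lymphocytes, had 26.9 and 22.8 CPM in the controls, 18.7 and 22.6 in IR, and 24.1 and 33.7 in IR_Pra. Its groups were nearly in contact. KCNJ16, an inward rectifier, stayed under 1 CPM throughout.

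**Figure D4:**
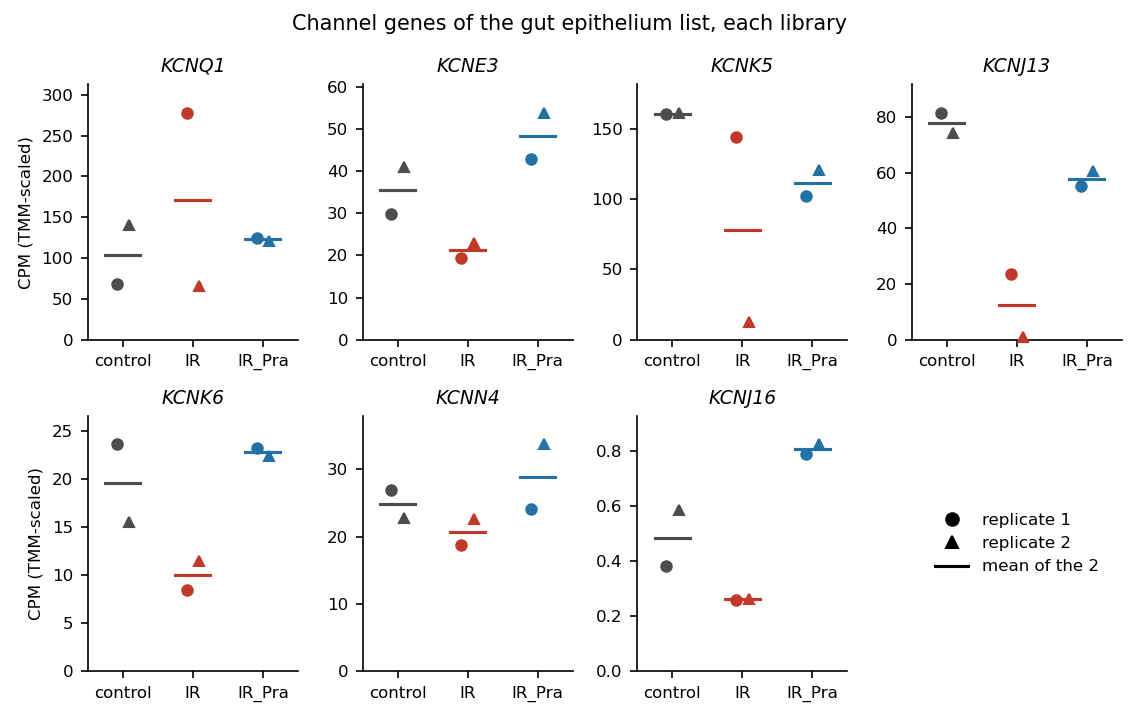
CPM (TMM-scaled, linear axis from 0) of 7 channel genes of the gut epithelium list, by group. Circles are replicate 1, triangles replicate 2, and bars the mean of the 2 animals. IR 1 and IR 2 lie close together for KCNE3, KCNK6, KCNN4 and KCNJ16, and far apart for KCNQ1, KCNK5 and KCNJ13.

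Of the 10 epithelial markers 8 had negative log2 fold changes and none was called or at 0. As given above, their sum was within or near the control range in IR 1 and lowest in IR 2. The 6 channel genes with negative log2 fold changes were below both controls in IR 1 as well as in IR 2. In IR 1 their log2 ratios to the control mean ran from -1.72 (KCNJ13) to -0.16 (KCNK5). Ratios in that library also moved with transcript length. The part of the marker sum in the values of these channel genes was not tested.

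The 32 tested genes of the neuron list had a median of 0.76, with 1 gene called higher and KCNJ3 called lower. Among all genes 3.39% were called higher and 2.68% lower. By library the median of the neuron list against control was 0.01 in IR 1 and 1.32 in IR 2. Of the 14 enteric neuron markers tested, 13 had positive log2 fold changes, and UCHL1 and PRPH rose. Their summed CPM was 79 and 90.2 in the controls, 236 and 396 in IR, and 111 and 99.7 in IR_Pra, with no marker at 0, and its part in the values of these channel genes was not tested. KCNJ3 was low in IR, where that sum was highest, and also in IR_Pra (0.676 and 0.994 CPM), where the sum was nearer to the controls. Of the 6 enteroendocrine markers, 3 had positive and 3 negative log2 fold changes, and NEUROD1 and PAX6 were called lower. The list's sum was 323 and 214 CPM in the controls, 255 and 152 in IR and 225 and 268 in IR_Pra. Its part in the KCNJ3 values was not tested.

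**Figure D5:**
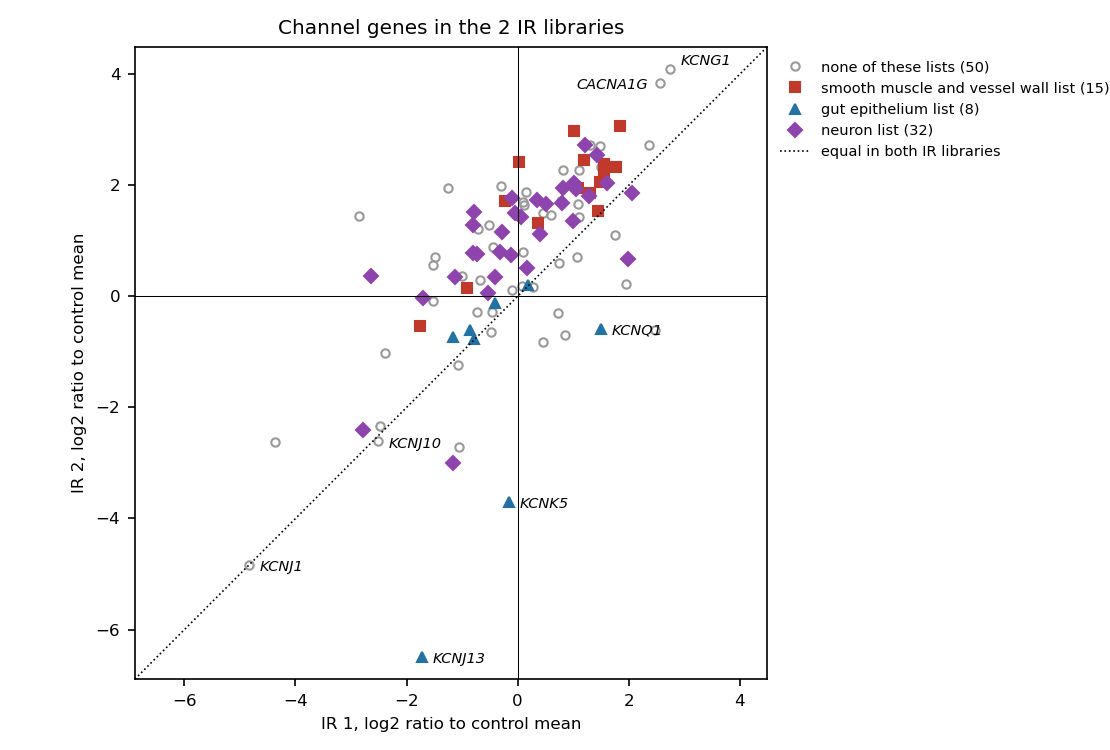
Log2 ratio to the control mean in IR 1 (horizontal) and IR 2 (vertical) for the 105 channel genes tested, computed from log2 CPM with a prior count of 2. Colours give the site lists, and the dotted line marks equal ratios. Most points lie above the line, and KCNQ1, KCNK5 and KCNJ13 lie far below it.

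IR 2 lay above IR 1 for 85 of the 105 channel genes, where 57% of all genes did so. The median log2 ratio to the control mean was 0.10 in IR 1, with 57 genes above 0, and 1.11 in IR 2, with 79 above 0. After the trend with transcript length was removed in each library, these medians were 0.58 and 1.04. With that trend removed, 8 channel genes passed in IR against control, 5 of them among the 7, and 5.62% of all genes passed. Both IR libraries lay beyond all 4 other libraries for 32 channel genes on the high side, 30.5% against 22.6% of all genes, and for 12 on the low side, 11.4% against 22.3%.

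Genes that work with these channels but carry other names were counted as well. Of 8 beta and gamma subunits of calcium channels none was called, at a median of 1.61. CACNB1, the beta subunit of muscle, was nearest, with 4.55 and 4.53 CPM in the controls, 10.2 and 14.5 in IR, and 4.65 and 4.73 in IR_Pra (1.45 ± 0.31, edgeR, adjusted p = 0.0526). Of 23 genes of calcium store release and refilling 1 rose and 2 fell. ITPR2 and ITPR3, receptors that release calcium on binding inositol trisphosphate, fell by 1.97 ± 0.26 and 1.80 ± 0.28 on the log2 scale (edgeR, adjusted p = 0.0370 for both). ITPR2 was read at 49.2 and 45.6 CPM in the controls, 10.05 and 14.2 in IR, and 37.3 and 39.6 in IR_Pra. ORAI2, a pore of store-operated calcium entry, rose, from 7.89 and 7.57 CPM in control to 21.1 and 31.4 in IR (edgeR, adjusted p = 0.0398).

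Of 13 partners of potassium and sodium channels ANK3, which anchors sodium channels, was called, and it fell (-1.51 ± 0.31, edgeR, adjusted p = 0.0491). Of 22 TRP and PIEZO channels PIEZO1, a mechanically gated channel, rose, and TRPM7 and TRPV3 fell. TRPM7, a channel fused to a kinase, was read at 116 and 81.4 CPM in the controls, 18.6 and 26.2 in IR, and 66.6 and 70.6 in IR_Pra. None of 9 epithelial sodium, leak and pacemaker channels and none of 19 chloride channels and pumps was called. CFTR, the chloride channel that the epithelial potassium channels serve, had 79.7 and 95.2 CPM in the controls, 19.2 and 4.81 in IR, and 103.7 and 66.5 in IR_Pra (-2.86 ± 0.66, edgeR, adjusted p = 0.0594).

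Irradiated animals with pravastatin were then compared with irradiated animals without it. No channel gene passed (edgeR, 0 of 105, with 0.0055% of all genes passing), 27 had an unadjusted p under 0.05, 6 of them higher and 21 lower in IR_Pra, and 24.5% of all genes had such a p. DESeq2 called 19 channel genes (15.8% of all genes) and limma voom none. The log2 fold change was negative for 72 of the 105, against 50.9% of all genes. Its median was -0.40, and 0.12 without IR 2, so its sign rested on that library. Both IR_Pra animals lay below both IR animals for 33 channel genes, 31.4% against 26.6% of all genes, and above both for 16, 15.2% against 27.3%. In either direction that was 46.7% of the channel genes and 53.9% of all genes. The edgeR fit called 24 channel genes without IR 1, where it called 19.7% of all genes, and 5 without IR 2, where it called 12.4%.

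Among the genes with the smallest p, CACNA1S had IR_Pra values below both other groups, as given above. KCNJ10 was higher by 2.86 ± 0.57 (edgeR, adjusted p = 0.0830) and KCNE3 by 1.19 ± 0.27 (edgeR, adjusted p = 0.0936), and neither passed. By site, the smooth muscle and vessel wall genes had a median of -1.09 and the gut epithelium genes one of 0.85, with none called in either list. IR_Pra against IR and IR against control share the IR animals, so a value in IR enters both with opposite sign.

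In IR_Pra against control no channel gene passed in the edgeR test, and none of all genes did (0%). An unadjusted p under 0.05 was reached by 3 channel genes, CACNA1G above control and KCNJ3 and CACNA1S below it, and by 3.42% of all genes. DESeq2 called 1, KCNJ3, and limma voom none. The log2 fold change was positive for 68, against 50.6% of all genes, and its median was 0.31, or 0.0863 without control 1 and 0.0884 without IR_Pra 1. Both IR_Pra animals lay above both controls for 32 channel genes, 30.5% against 20.8% of all genes, and below both for 12, 11.4% against 20%.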

How the data were processed

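RNA from 6 animals was sequenced, and the authors deposited 1 table with a read count and an FPKM value per gene and library. Per the submitters' processing notes, bcl2fastq 2.20.0, Trimmomatic, HISAT2 2.1.0 and StringTie 2.1.3b were used, and the builds Sscrofa11.1 and GRCh38 are named. The sources used here do not say how whole counts were made or whether strand was used. The deposited read counts were whole numbers and were tested as deposited. The deposited FPKM values, normalised by the authors for length and depth, were used to compare levels between genes and in 1 alternative. Transcript lengths were worked out from the deposited counts and FPKM values together, so the trend with length and its removal also rest on them.

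Rows with no gene name (24, holding 0.00906% to 0.0385% of the counts) were left out. In R 4.3.3, edgeR 4.0.16 fitted all 6 libraries at once with a term per group (filterByExpr, TMM, glmQLFit with legacy off, 3 residual degrees of freedom, common biological coefficient of variation 0.431). Adjusted p-values are Benjamini-Hochberg over 18197 genes and 3 comparisons were made. A standard error is the absolute log2 fold change divided by the square root of F. The alternatives were DESeq2 1.42.0, limma 3.58.1, other scalings and filters, and fits without single libraries. The fit was tested on simulated data. All 106 genes matched a RefSeq entry, 3 of them unplaced, and 36 overlap another gene, 17 a protein-coding one, so their reads may be shared.

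The genes, lists and tests were chosen with earlier results of these data known. Named genes were those past the threshold, the 6 with the smallest p in each direction and comparison, the 10 with the highest mean FPKM, up to 3 with the smallest p in each class, and 18 always named, such as KCNMA1 and RYR1. SCN2A, CACNG8, CR2, MB, TUBB3 and ATP1A4 were on the lists and are not analysed here. Some genes that the rule names are not reported here. With 2 animals per group, p-values rest on the spread within all 3 groups, with information shared over genes. They do not measure spread beyond these animals.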

Additional observations from a re-analysis of the deposited data

How the results depend on the processing

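In IR against control, 7 channel genes passed. The number, with the share of all genes called in brackets, was 29 with DESeq2 (22.7%), 3 with limma voom (5.12%), 2 with limma on log2(FPKM + 1) (2.21%), 1 with library size alone (2.61%), 4 with no filter (3.62%), 4 of 37 tested with at least 5 CPM in 2 libraries (9.84%), 0 with the 4 libraries of the comparison alone, and 24 at an adjusted p under 0.10. With edgeR's legacy fit, added after the data were seen, it was 3 (4.34%). Leaving out 1 library gave 0 to 35. DESeq2 size factors gave 7 (6.79%), a robust fit 6 (5.62%) and removal of the length trend 8 (5.62%). A minimum of 200 reads, set on the channel genes alone, gave 6, with all genes left as in the main fit (6.06%). The share of all genes was not counted at an adjusted p under 0.10. In IR_Pra against IR, 0 genes became 19 with DESeq2 (15.8%) and 5 at an adjusted p under 0.10, and leaving out 1 library gave 0 to 24. In IR_Pra against control, DESeq2 called 1 (0.396%). Medians ranged from 0.08 to 1.16 in IR against control, -0.80 to 0.12 in IR_Pra against IR, and 0.0863 to 0.416 in IR_Pra against control when 1 library was left out, and limma on FPKM gave 0.064 in the last. The cause of these shifts was not tested. Scaling by library size alone moved the median of all genes in IR_Pra against IR from -0.02 to 0.14. The replicate numbers name separate animals, and deviations of same-numbered animals correlated at 0.081, -0.11 and -0.091 over genes. With 2 animals in each group these values cannot exclude a pairing by number, and the main fit used none. With the number as a replicate block, 0 channel genes passed in each comparison. KCNJ3 passed under each planned setting that tested it other than library size alone, that block, the 4 libraries alone, and the fits without a control or an IR_Pra library.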

Other observations

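The values below were chosen after the data were seen and are given with no test. Set against the summed CPM of the 10 smooth muscle markers, the 15 channel genes of the smooth muscle and vessel wall list came to 35.1 and 28.9 per 1000 in the controls, 19.5 and 19.1 in IR, and 22.1 and 24.6 in IR_Pra. Of the 15, 10 were lower in both IR animals than in both controls on that scale and 5 overlapped. KCNMB1 overlapped, at 6.46 and 8.44 in the controls, 6.89 and 4.72 in IR, and 5.77 and 7.84 in IR_Pra. The neuron list, per 1000 of the enteric neuron markers, came to 839 and 1130 in the controls, 445 and 492 in IR, and 941 and 973 in IR_Pra. Of its 32 genes, 19 were lower in IR and 13 overlapped. Both marker sums were higher in IR than in control, so a gene with an unchanged CPM would also be lower on these scales. The share of all genes that were lower was not counted on them.

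Set against the 10 epithelial markers, the 8 channel genes of the gut epithelium list came to 51.7 and 54.2 per 1000 in the controls, 62.6 and 111 in IR, and 44.1 and 58.6 in IR_Pra. On this scale 2 of the 8 (KCNQ1 and KCNK1) were higher in both IR animals than in both controls, 2 (KCNJ13 and KCNK5) were lower, and 4, KCNE3 and KCNK6 among them, overlapped. The epithelial marker sum was lowest in IR 2, which raises values on this scale there, and the share of all genes was not counted on it. KCNQ1 was at 8.94 and 16.5 in the controls and 35.0 and 51.4 in IR, although its CPM was lowest in IR 2. KCNJ13 was at 10.7 and 8.75 in the controls, 2.98 and 0.655 in IR, and 6.40 and 8.46 in IR_Pra. KCNK5 was at 21.0 and 19.1 in the controls, 18.2 and 9.72 in IR, and 11.9 and 16.9 in IR_Pra.

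KCNG1, a silent subunit that modifies other voltage-gated potassium channels, had as large a log2 fold change in IR against control as CACNA1G, 3.34 ± 0.75, and did not pass (edgeR, adjusted p = 0.0565). It was read at 0.727 and 2.51 CPM in the controls, 9.31 and 23.6 in IR, and 4.52 and 3.11 in IR_Pra. Of the 18 channel genes under 50 reads, 5 had none in any library: KCNA10, KCNE2, KCNK18, KCNV1 and KCNV2.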
